A study of Homo sapiens with 6 samples.

Results

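The genes described here are 32 genes of the ATF4 amino acid stress response, taken from the 60612 genes listed for each library. They were chosen by name, as transcription factors of the response, enzymes that make serine, asparagine and other amino acids, and amino acid transporters, by a rule on names that uses no measured value. Earlier results of these data were known when the choice was made, so counts over the members are descriptions. All 32 were found by matching Ensembl identifiers to GENCODE release 44 symbols. Gene expression was measured by poly(A) RNA sequencing in HCT116, an established human colorectal carcinoma line. There were 6 libraries. LV-NC, the control lentivirus, had been given to the cells of 3 of them, and LV-SNORA28, a virus that overexpresses the small nucleolar RNA SNORA28, to those of the other 3. Per the methods of the study, the SNORA28 virus was built on the GV235 vector, and cells with stable overexpression were selected with puromycin. The same methods state the time from infection to collection, which is not reported here. No source states that the 3 libraries of a group came from separate cultures, so p-values measure the spread between libraries, which may be technical.

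ATF4 is a transcription factor whose translation increases when initiation factor eIF2 is phosphorylated. The eIF2 kinase GCN2, encoded by EIF2AK4, senses uncharged transfer RNA when amino acids run short, and PERK, encoded by EIF2AK3, senses unfolded protein in the endoplasmic reticulum. ATF4 protein, paired with C/EBP factors, activates genes for amino acid synthesis and import and for feedback regulators of the pathway. Because ATF4 is regulated largely at translation, the mRNA level of ATF4 need not follow its protein, which was not measured here.

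Expression is given as FPKM, a fragment level scaled to transcript length and to the total mapped in each library. The values of SNORA28 were 0.92, 0 and 0.64 FPKM among LV-NC libraries, against 15.01, 13.66 and 15.2 FPKM under LV-SNORA28, so the labels and the measured transcript had the same order. EIF5, its host gene, had means of 11.6 ± 4.56 and 15.4 ± 2.15 FPKM (SD, n = 3 each; limma adjusted p 0.300), and the adjusted p was 0.0417 without LV-NC replicate 1. Epithelial markers EPCAM, KRT8, KRT18, KRT19 and CDH1 were at 9.65 FPKM or more in every library, while the intestinal factor CDX1 was listed at 0. Of the markers of other cell types, PTPRC, CD3E, COL3A1 and PECAM1 were at 0.08 FPKM or less, and the collagen gene COL1A1 was at 3.16 to 4.46 FPKM in both groups. Transcripts of the mitochondrial genome took 42.7% to 47.7% of all FPKM in LV-NC and 35.9% to 38.3% in LV-SNORA28.

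Genes were called changed at an adjusted p below 0.05 in limma, on log2(FPKM + 1), among the 12076 genes whose mean reached 1 FPKM. Of the 32 members, 29 were tested, and 7 of them (24.1%) rose in LV-SNORA28, where 6.81% of all genes tested rose. These were TRIB3, PPP1R15A, DDIT4, MTHFD2, ASNS, CTH and SLC38A2. No member fell by limma, and none of the 29 had a lower value at an unadjusted p below 0.05, where 2.10% and 6.08% of all genes tested were lower by these rules. At that unadjusted p, 13 members were higher, against 22.0% of all genes tested. The remaining 22 members did not pass the adjusted threshold. The members' median log2 fold change was 0.13, beside 0.09 over all genes tested, of which 66.7% lay above 0. Every tested member had at least 2.02 FPKM in each library, so that none entered through a single group. The share of all genes tested, here and for each role and list below, was not matched for level. When the filter was raised to 5 FPKM, 693 of 6241 genes rose, a larger share than 822 of 12076 at 1 FPKM. Under that stricter filter, 6 of 25 members rose.

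The groups did not overlap, with LV-SNORA28 higher, in 13 of the 29 members, which are the 7 called genes with CHAC1, PSAT1, PSPH, SLC3A2, SLC1A4 and XPOT. This held for 27.0% of all genes tested, and the reverse order for 8.16% of all genes and for 0 tested members. The study's own threshold was a fold change above 1.5 at an unadjusted p below 0.05. It was applied here to the limma fit on log2(FPKM + 1), whose folds and p-values may differ from those of the study. TRIB3 and CTH passed it, where 2.58% of all genes tested passed it in the same direction.

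**Figure D1:**
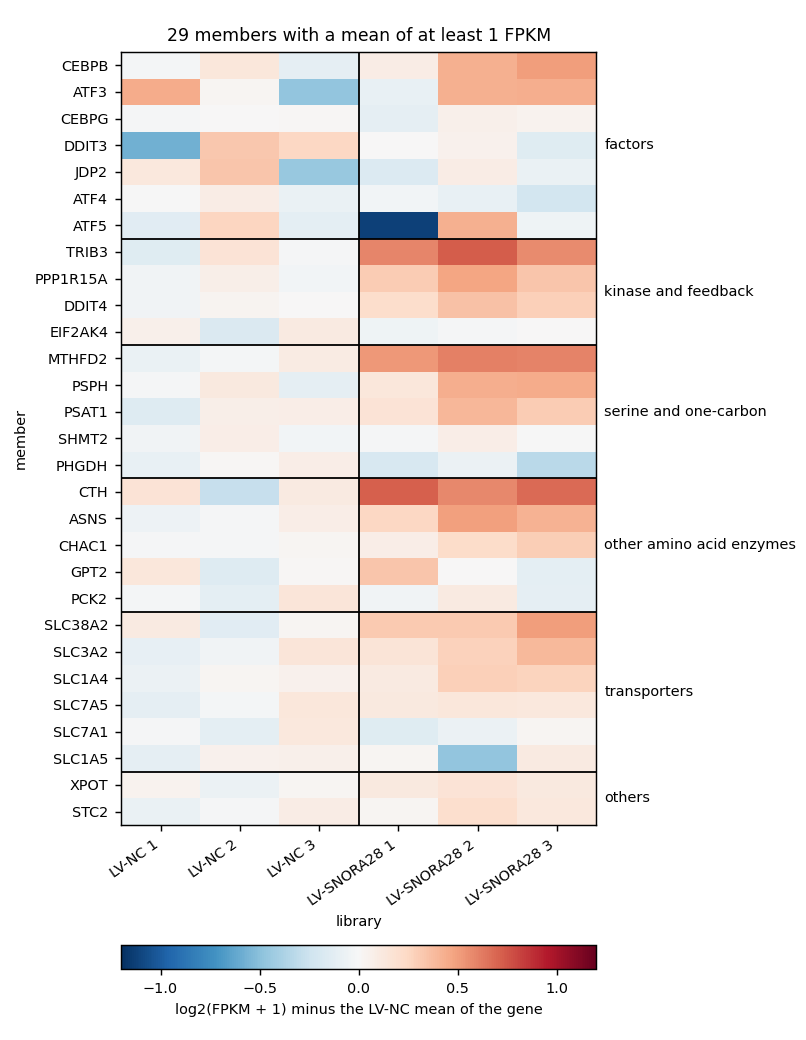
Each cell gives log2(FPKM + 1) of 1 library minus the mean of the 3 LV-NC libraries, for the 29 tested members, grouped by role. Red cells run through all 3 LV-SNORA28 libraries for TRIB3, MTHFD2, CTH, ASNS and SLC38A2, while DDIT3, ATF3, ATF5 and JDP2 differ as much between libraries of a group as between groups.

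None of the 7 transcription factors tested was called by limma, where 6.81% of all genes tested rose and 2.10% fell. Differences between the roles were not tested. Among these factors 1, CEBPB, was higher at an unadjusted p below 0.05, beside 22.0% of all genes tested. ATF4 (ENSG00000128272; GRCh38 chromosome 22, 39519695 to 39522683, plus strand) was at 42.18, 44.87 and 39.77 FPKM among LV-NC libraries, against 41.38, 39.65 and 36.08 FPKM under LV-SNORA28. The groups overlapped, and the lowest value was in LV-SNORA28 replicate 3. ATF4 had a log2 fold change of -0.11 (SE 0.08; 95% interval -0.29 to 0.07; limma adjusted p 0.383). An increase of the ATF4 message of more than 0.07 on the log2 scale therefore lay outside this interval.

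DDIT3 (ENSG00000175197; chromosome 12, 57516588 to 57521737, minus strand) encodes CHOP, the factor linked to cell death under prolonged stress. It was at 9.89, 19.35 and 18.26 FPKM among LV-NC libraries, against 15.28, 15.86 and 13.64 FPKM under LV-SNORA28. All 3 LV-SNORA28 values lay between LV-NC replicate 1, the lowest library, and the others of its group. DDIT3 had a log2 fold change of -0.03 (95% interval -0.59 to 0.54; limma adjusted p 0.952), and it turned to 0.13 without LV-NC replicate 2 and to -0.32 without LV-NC replicate 1.

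ATF3, a stress-induced repressor and activator of the same factor family, was at 4.71, 3.24 and 2.02 FPKM among LV-NC libraries, against 2.92, 4.61 and 4.65 FPKM under LV-SNORA28. Its groups overlapped across almost the whole range (log2 fold change 0.26, 95% interval -0.36 to 0.87, limma adjusted p 0.563). ATF5, a factor that like ATF4 is controlled by upstream reading frames, was at 2.6 FPKM in LV-SNORA28 replicate 1 and at 6.14 to 9.54 FPKM in the other 5 libraries. That library decided its direction, since the log2 fold change of ATF5 was -0.25 with it and 0.19 without it.

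CEBPB and CEBPG encode C/EBP partners of ATF4. CEBPB was at 15.39 to 18.46 FPKM in LV-NC and at 17.78 to 24.11 FPKM in LV-SNORA28 (log2 fold change 0.34, SE 0.13, limma adjusted p 0.140). CEBPG was at 22.59 to 23.05 FPKM in LV-NC and at 21.14 to 23.79 FPKM in LV-SNORA28, with an interval of -0.16 to 0.15 for its log2 fold change. JDP2, a repressor that binds the same kind of site, had a log2 fold change of -0.05 (interval -0.54 to 0.44). NUPR1, a small stress-induced chromatin protein, was below the level filter, at 0.42, 0.31 and 0.36 FPKM among LV-NC libraries, against 0.17, 0.26 and 0.17 FPKM under LV-SNORA28. In the limma fit without a filter its adjusted p was 0.236.

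In the role named kinase and feedback, which holds EIF2AK4, TRIB3, PPP1R15A and DDIT4, all but EIF2AK4 were called, where 6.81% of all genes tested rose. Feedback here describes TRIB3 and PPP1R15A, while DDIT4 acts on mTORC1 signalling. TRIB3 (ENSG00000101255; chromosome 20, 362835 to 397559, plus strand) encodes a pseudokinase that binds ATF4 and restrains it. It was at 21.3, 26.67 and 23.54 FPKM among LV-NC libraries, against 36.13, 39.89 and 35.76 FPKM under LV-SNORA28. Each LV-SNORA28 library was above each LV-NC library. TRIB3 rose by 56.3% in mean FPKM, with a log2 fold change of 0.63 (SE 0.09; 95% interval 0.40 to 0.85; limma adjusted p 0.0154).

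PPP1R15A (ENSG00000087074; chromosome 19, 48872212 to 48876059, plus strand) encodes GADD34, the subunit that directs a phosphatase to eIF2 and so ends the response. Its values were 24.4, 26.35 and 24.52 FPKM among LV-NC libraries, against 31.28, 35.28 and 31.9 FPKM under LV-SNORA28. The gap between the groups was wider than the range of either. PPP1R15A had a log2 fold change of 0.37 (SE 0.07; limma adjusted p 0.0269).

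DDIT4 (ENSG00000168209; chromosome 10, 72273919 to 72276036, plus strand) encodes REDD1, an inhibitor of mTORC1 signalling. Its values were 82.05, 85.99 and 84.8 FPKM among LV-NC libraries, against 97.88, 108.06 and 102.95 FPKM under LV-SNORA28. The groups stood apart, and the change was the smallest among the called members, with a log2 fold change of 0.28 (SE 0.06; limma adjusted p 0.0365). EIF2AK4, which encodes the eIF2 kinase GCN2, was at 7.64, 6.35 and 7.92 FPKM among LV-NC libraries, against 7, 7.22 and 7.32 FPKM under LV-SNORA28. Its interval ran from -0.23 to 0.20 on the log2 scale.

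**Figure D2:**
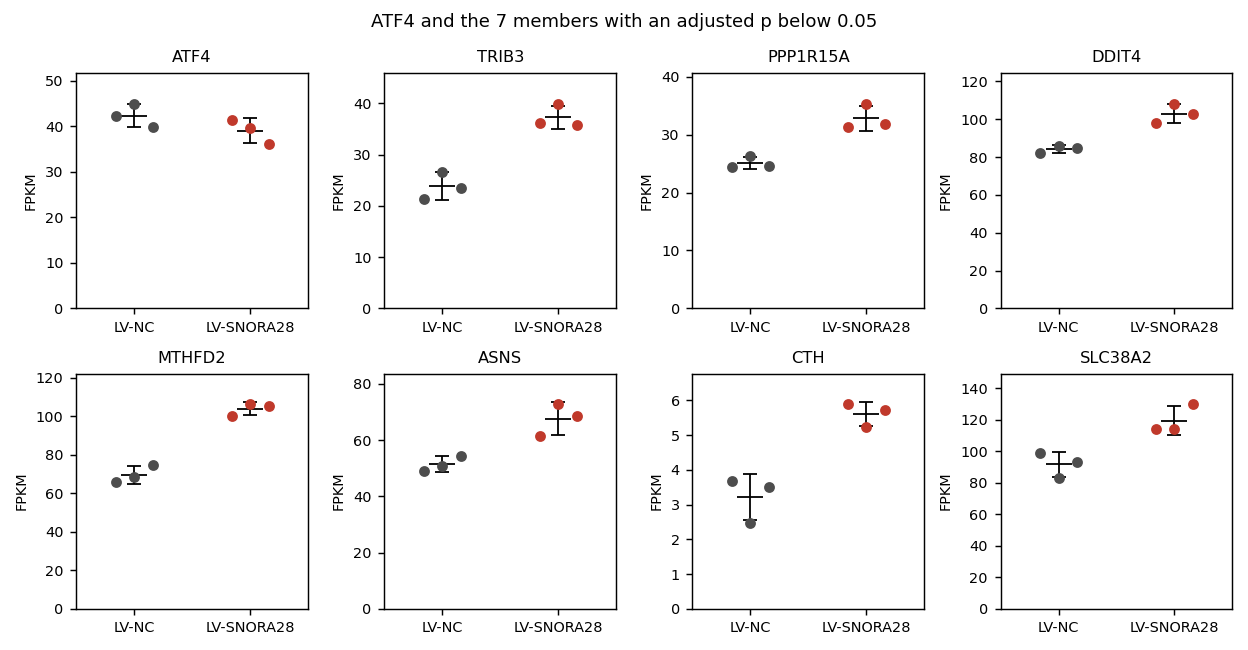
FPKM of ATF4 and of the 7 called members in the 3 LV-NC libraries (grey) and the 3 LV-SNORA28 libraries (red), with the group mean and SD as bars and the axis starting at 0. The groups overlap for ATF4, at 36.08 to 44.87 FPKM over all 6 libraries, and are separate in the other 7 panels.

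Serine synthesis runs from PHGDH through PSAT1 to PSPH, and mitochondrial SHMT2, MTHFD2 and ALDH1L2 then carry the serine carbon into the folate cycle. Of these 6 genes, 5 were tested and 1 was called, where 6.81% of all genes tested rose. MTHFD2 (ENSG00000065911; chromosome 2, 74186172 to 74217565, plus strand) was at 65.6, 68.44 and 74.53 FPKM among LV-NC libraries, against 99.87, 106.15 and 105.11 FPKM under LV-SNORA28. The lowest LV-SNORA28 library was far above the highest LV-NC library. MTHFD2 rose by 49.2% in mean FPKM, with a log2 fold change of 0.57 (SE 0.07; 95% interval 0.41 to 0.73; limma adjusted p 0.00800). Its adjusted p was the lowest among the tested members.

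SHMT2, the enzyme just before MTHFD2, was at 45.09, 49.2 and 45.52 FPKM among LV-NC libraries, against 46.03, 49.28 and 46.52 FPKM under LV-SNORA28. The 2 groups had nearly the same values, and the interval of the log2 fold change was -0.13 to 0.17. Within a library, the ratio of MTHFD2 to SHMT2 does not depend on the scaling to the mapped total. It was 1.49 ± 0.128 under LV-NC and 2.19 ± 0.0569 under LV-SNORA28 (SD, n = 3 each), and the groups did not overlap. An exact two-sided permutation test gave p = 0.1, the smallest that 3 against 3 libraries allow, for this ratio and for each of the 2 other ratios TRIB3 over ATF4 and TRIB3 over HSPA5. The 3 ratios were chosen after the values were seen, and their Benjamini-Hochberg adjusted values are also 0.1.

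PSAT1, the transaminase step, was at 118.27, 138.73 and 139.67 FPKM among LV-NC libraries, against 147.86, 173.81 and 163.13 FPKM under LV-SNORA28. These groups stood apart, and PSAT1 missed the threshold with a log2 fold change of 0.29 (SE 0.09; limma adjusted p 0.105). After quantile normalization the limma adjusted p was 0.0452, the only alternative under which PSAT1 passed. PSPH, the last step, was at 10.87, 11.95 and 10.13 FPKM among LV-NC libraries, against 12.16, 15.19 and 15.25 FPKM under LV-SNORA28 (log2 fold change 0.34, limma adjusted p 0.0986). Its copy PSPHP1 had the same sign, with a mean of 3.77 FPKM in LV-NC and 5.52 FPKM in LV-SNORA28 (limma adjusted p 0.0626), and reads of the pair may be split between them. PHGDH, which commits glucose carbon to the pathway, had the opposite sign, with 21.87, 23.53 and 24.76 FPKM in LV-NC and 20.38, 22.19 and 18.44 FPKM in LV-SNORA28. Its groups overlapped (log2 fold change -0.19, SE 0.09, limma adjusted p 0.197). ALDH1L2, the mitochondrial enzyme that oxidizes formyl-folate, was below the filter, at 0.32, 0.32 and 0.24 FPKM among LV-NC libraries, against 0.44, 0.51 and 0.5 FPKM under LV-SNORA28, with an adjusted p of 0.241 in the limma fit without a filter.

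**Figure D3:**
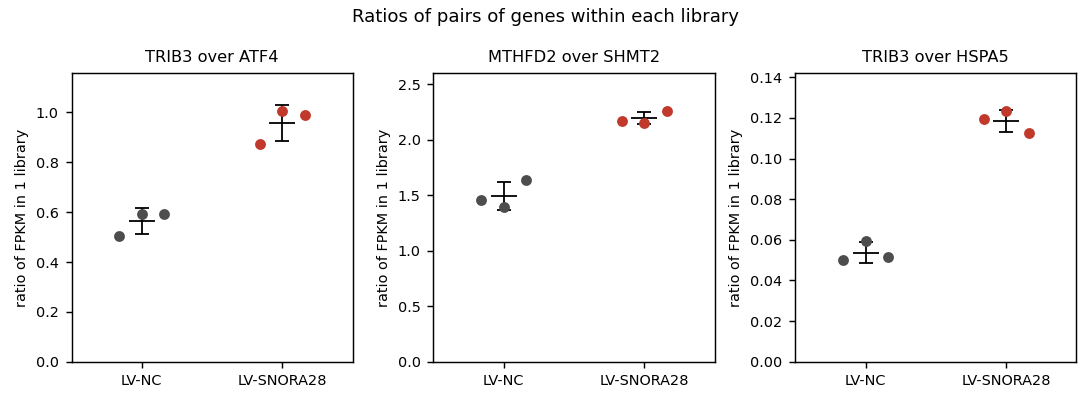
Ratio of the FPKM of 2 genes within each library, with group mean and SD as bars and the axis starting at 0. The ratio of MTHFD2 to SHMT2 is 1.39 to 1.64 in LV-NC and 2.15 to 2.26 in LV-SNORA28, that of TRIB3 to ATF4 is 0.505 to 0.594 and 0.873 to 1.01, and that of TRIB3 to HSPA5 is 0.05 to 0.0594 and 0.113 to 0.123.

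ASNS (ENSG00000070669; chromosome 7, 97851677 to 97872542, minus strand) encodes asparagine synthetase, the textbook target of this response. It was at 49.04, 50.69 and 54.45 FPKM among LV-NC libraries, against 61.27, 72.75 and 68.73 FPKM under LV-SNORA28. All LV-SNORA28 libraries were higher, and ASNS had a log2 fold change of 0.39 (SE 0.08; 95% interval 0.19 to 0.58; limma adjusted p 0.0372). A long noncoding gene model, ENSG00000284707, overlaps ASNS on the same strand. It was at 6.62, 12.22 and 1.61 FPKM among LV-NC libraries, against 1.5, 1.66 and 2.49 FPKM under LV-SNORA28 (limma adjusted p 0.226), and reads of the overlapping models may be split between them.

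CTH (ENSG00000116761; chromosome 1, 70411218 to 70439851, plus strand) encodes cystathionine gamma-lyase, which makes cysteine from cystathionine. It was at 3.68, 2.46 and 3.52 FPKM among LV-NC libraries, against 5.89, 5.22 and 5.71 FPKM under LV-SNORA28. CTH showed the largest fold change of the tested members, 74.1% in mean FPKM, with a log2 fold change of 0.66 (SE 0.13; limma adjusted p 0.0304). Its level was the lowest of the called members.

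CHAC1, which degrades glutathione, was at 11.45, 11.47 and 11.74 FPKM among LV-NC libraries, against 12.27, 13.59 and 14.4 FPKM under LV-SNORA28. The groups were apart, but the log2 fold change of 0.20 (SE 0.07) had a limma adjusted p of 0.136. GPT2, the mitochondrial alanine transaminase, had a log2 fold change of 0.07 (interval -0.25 to 0.40). PCK2, the mitochondrial enzyme that makes phosphoenolpyruvate, had one of -0.01 (interval -0.24 to 0.21).

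Of the 6 transporters, SLC38A2 alone passed, where 6.81% of all genes tested rose. SLC38A2 (ENSG00000134294; chromosome 12, 46358188 to 46372773, minus strand) encodes SNAT2, a sodium-coupled importer of small neutral amino acids. Its values were 98.79, 82.92 and 93.12 FPKM among LV-NC libraries, against 114.2, 114.11 and 129.89 FPKM under LV-SNORA28. The highest value was in LV-SNORA28 replicate 3, and the groups did not overlap. SLC38A2 had a log2 fold change of 0.38 (SE 0.09; limma adjusted p 0.0484), close to the threshold.

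SLC7A5 and SLC3A2 encode the light and heavy chains of LAT1, which exchanges glutamine for large neutral amino acids. SLC7A5 was the most abundant member, at 191.13, 203.09 and 226.45 FPKM among LV-NC libraries, against 224.52, 227.08 and 225.3 FPKM under LV-SNORA28. LV-NC replicate 3 reached the level of the other group, and the limma adjusted p was 0.308. SLC3A2 was at 38.83 to 46.13 FPKM in LV-NC and at 46.52 to 54.9 FPKM in LV-SNORA28 (log2 fold change 0.27, limma adjusted p 0.112). SLC1A4, an alanine and serine carrier, was at 2.49 to 2.79 FPKM and at 2.94 to 3.45 FPKM (log2 fold change 0.22, limma adjusted p 0.144).

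SLC1A5, the glutamine carrier ASCT2, was at 79.12 FPKM in LV-SNORA28 replicate 2 and at 102.01 to 118.92 FPKM in the other 5 libraries. Its log2 fold change was -0.11 (interval -0.49 to 0.26) and 0.07 without that library. SLC7A1, the cationic amino acid carrier CAT1, had a log2 fold change of -0.07 (interval -0.27 to 0.13).

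The remaining members have other roles. XPOT, which exports transfer RNA from the nucleus, was at 26.23 to 28.34 FPKM in LV-NC and at 29.94 to 31 FPKM in LV-SNORA28 (log2 fold change 0.13, limma adjusted p 0.187). STC2, a secreted glycoprotein, had a log2 fold change of 0.12 (interval -0.07 to 0.30). VLDLR, a lipoprotein receptor, was listed at 0.01 or 0.02 FPKM in every library, and no fold is given for it.

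**Figure D4:**
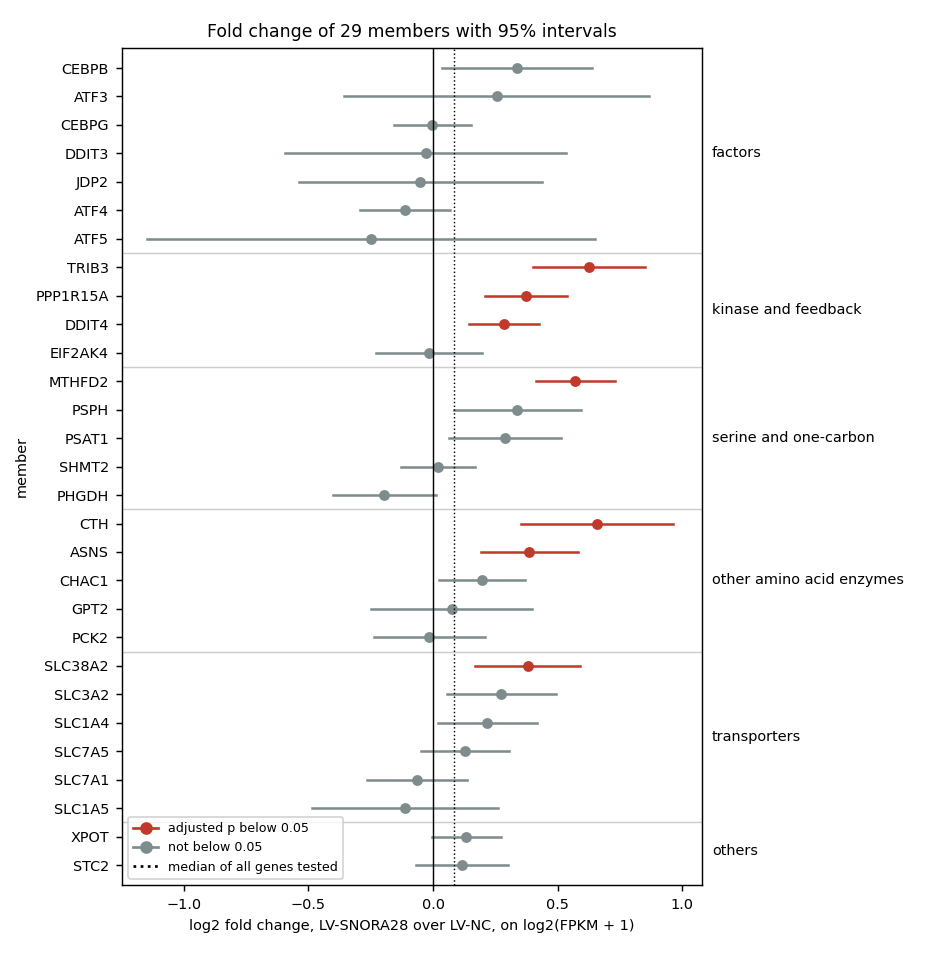
Log2 fold change of the 29 tested members, LV-SNORA28 over LV-NC on log2(FPKM + 1), with 95% intervals from limma. The 7 called members in red lie between 0.28 and 0.66, and the dotted line marks the median of all genes tested, 0.09.

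The called members differed in how far the call depended on a setting. MTHFD2 kept an adjusted p below 0.05 in all 13 alternative limma fits, with log2 fold changes from 0.47 to 0.62. TRIB3 kept it in 10 of 13, with its highest adjusted p, 0.0601, among the fits without LV-NC replicate 3, LV-SNORA28 replicate 2 or LV-SNORA28 replicate 3. CTH kept it in 7 of 12, PPP1R15A in 6 of 13, ASNS in 5 of 13, DDIT4 in 3 of 13 and SLC38A2 in 2 of 13. Leaving out any 1 library ended the calls of PPP1R15A, DDIT4 and SLC38A2. ASNS kept its call only without LV-SNORA28 replicate 1, and CTH only without LV-NC replicate 1 or LV-NC replicate 2. MTHFD2 alone was called without LV-NC replicate 3, LV-SNORA28 replicate 2 or LV-SNORA28 replicate 3. All 7 kept a positive sign wherever they were tested.

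Since the mitochondrial share differed between the groups, values were also scaled to the sum of the other genes. MTHFD2, TRIB3, PPP1R15A, CTH, ASNS and DDIT4 were called there, and SLC38A2 was not. After quantile normalization, MTHFD2, TRIB3, PPP1R15A and CTH were called, together with PSAT1. Over all genes tested, quantile normalization changed 822 higher and 254 lower genes into 451 higher and 375 lower genes. In RNA from whole cultures, a change in every cell and a change in the share of cells cannot be told apart.

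Levels were also summed over each role. In these sums, the factors had 112 ± 8.88 under LV-NC and 112 ± 7.99 FPKM under LV-SNORA28 (SD, n = 3 each). The kinase and feedback genes had 141 ± 4.99 and 180 ± 9.29 FPKM (SD, n = 3 each). The serine and folate enzymes had 283 ± 18.2 and 348 ± 20.2 FPKM, and the transporters 483 ± 28.6 and 531 ± 30.2 FPKM (SD, n = 3 each). Mean levels of the tested members over the 6 libraries ran from 2.96 FPKM for SLC1A4 to 216 FPKM for SLC7A5, and the median member stood at the 87.9th percentile of all genes tested. ATF4 itself was at the 93.6th percentile.

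ATF4 acts through the C/EBP-ATF response element, searched here as TGATGNAA on both strands, where N is any base. RefSeq promoter windows (GRCh38.p14, from 250 bases before to 50 after a start) were found for 27 of the 32 members, all but PSPH, SHMT2, ALDH1L2, NUPR1 and GPT2. At least 1 window held the letters in 9 of these 27 genes (33.3%), beside 4.46% of the 27305 genes with a window. The 9 sites follow, 5′ to 3′ on the strand of the gene with the matched letters in capitals, to show where the letters of the element lie. Their positions count from the start site at 1.

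ATF3, chr1:212565206-212565233, plus strand, -191 to -184: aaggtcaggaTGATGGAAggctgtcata
SLC1A4, chr2:64989382-64989409, plus strand, -7 to 1: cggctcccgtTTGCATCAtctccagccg
ASNS, chr7:97872459-97872486, minus strand, -68 to -61: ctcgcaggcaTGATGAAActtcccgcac
SLC3A2, chr11:62881726-62881748, plus strand, 38 to 45: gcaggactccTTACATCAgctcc
SLC7A1, chr13:29595664-29595691, minus strand, 8 to 15: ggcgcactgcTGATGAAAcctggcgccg
JDP2, chr14:75427996-75428023, plus strand, -16 to -9: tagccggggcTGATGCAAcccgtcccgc
CHAC1, chr15:40953252-40953279, plus strand, -209 to -202: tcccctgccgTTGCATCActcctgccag
CEBPG, chr19:33374061-33374088, plus strand, -42 to -35: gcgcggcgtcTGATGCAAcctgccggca
SLC1A5, chr19:46784894-46784921, minus strand, -97 to -90: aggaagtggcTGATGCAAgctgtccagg

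Of the 9 genes with these letters, ASNS alone was called, and 6 of the 7 called members had none in their windows. A match describes the letters and not a site in use, and these windows hold nothing beyond 250 bases before a start or within introns. The 120 bases before the first listed start of each called member are shown next, so that these sequences can be compared, again with matched letters in capitals.

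TRIB3, chr20:381175-381294, plus strand: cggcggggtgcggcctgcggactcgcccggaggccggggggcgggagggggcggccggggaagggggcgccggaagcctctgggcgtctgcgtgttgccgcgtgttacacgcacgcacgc
PPP1R15A, chr19:48872301-48872420, plus strand: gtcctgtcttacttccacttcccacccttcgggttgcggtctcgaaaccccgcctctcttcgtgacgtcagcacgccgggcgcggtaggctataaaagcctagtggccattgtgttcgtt
DDIT4, chr10:72273804-72273923, plus strand: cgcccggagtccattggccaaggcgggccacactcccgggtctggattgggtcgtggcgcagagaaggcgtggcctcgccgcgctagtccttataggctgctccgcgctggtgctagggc
MTHFD2, chr2:74198495-74198614, plus strand: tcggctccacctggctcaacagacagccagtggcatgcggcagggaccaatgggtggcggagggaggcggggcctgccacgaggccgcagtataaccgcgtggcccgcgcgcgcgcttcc
ASNS, chr7:97872409-97872528, minus strand: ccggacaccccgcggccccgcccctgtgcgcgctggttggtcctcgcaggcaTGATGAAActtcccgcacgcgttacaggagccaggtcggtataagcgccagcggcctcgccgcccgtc
CTH, chr1:70411148-70411267, plus strand: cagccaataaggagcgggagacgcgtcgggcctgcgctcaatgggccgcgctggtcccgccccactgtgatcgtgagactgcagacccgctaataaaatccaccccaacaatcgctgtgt
SLC38A2, chr12:46372774-46372893, minus strand: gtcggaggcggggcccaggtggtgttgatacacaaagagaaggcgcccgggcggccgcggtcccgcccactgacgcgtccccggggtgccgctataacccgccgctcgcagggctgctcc

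The G and C content of these 7 stretches ran from 58.3% in PPP1R15A to 80.0% in TRIB3. Over the whole windows, taking the first window of each gene, the median G and C content was 65.3% in the 27 members and 58.3% in all 27305 genes. Upstream start codons, the feature through which eIF2 phosphorylation raises translation of ATF4, were counted in the leaders of MANE Select transcripts. At least 1 was present in 13 of the 32 members (40.6%), all among the 29 tested (44.8%), and in 38.7% of 10414 tested genes. ATF4 and DDIT3 had 3 each, ATF5, PPP1R15A, TRIB3 and XPOT had 2 each, and PSPH had 6. Most called members, namely ASNS, CTH, DDIT4 and MTHFD2, had none, and SLC38A2 had 1.

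Further genes of the pathway were taken from lists compiled from general knowledge. Of 14 genes for eIF2, its kinases, its exchange factor eIF2B and their regulators, 3 rose and none fell by limma, beside the 6.81% and 2.10% of all genes. At an unadjusted p below 0.05, 5 of them were higher and 0 lower, beside 22.0% and 6.08% of all genes tested. EIF2S1, the eIF2 subunit that is phosphorylated, was at 15.67, 16.42 and 17.59 FPKM among LV-NC libraries, against 22.92, 24.71 and 27.01 FPKM under LV-SNORA28 (log2 fold change 0.56, SE 0.08, limma adjusted p 0.0133). EIF2S2, another subunit, rose from 75.5 ± 2.63 to 98.4 ± 3.33 FPKM (SD, n = 3 each; limma adjusted p 0.0155). PPP1R15B, the constitutive relative of PPP1R15A, was at 15.25, 11.33 and 12.97 FPKM among LV-NC libraries, against 22.07, 21.87 and 25.08 FPKM under LV-SNORA28. It had a log2 fold change of 0.77 (SE 0.11; limma adjusted p 0.0151), so both genes for the eIF2 phosphatase subunit rose. The list had 2 calls without LV-NC replicate 3, 1 without LV-SNORA28 replicate 3 and 0 without LV-SNORA28 replicate 2. The kinase gene EIF2AK3 had a log2 fold change of -0.13 (limma adjusted p 0.369).

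Of 28 other genes described as ATF4 targets, 22 were tested, of which 5 rose and 1 fell, beside 6.81% and 2.10% of all genes tested. ERO1A, an oxidase of the endoplasmic reticulum, was at 4.25, 4.48 and 5.16 FPKM among LV-NC libraries, against 9.74, 10.14 and 11.6 FPKM under LV-SNORA28. It more than doubled, with a log2 fold change of 1.03 (SE 0.09; limma adjusted p 0.00399). GOT1, the cytosolic aspartate transaminase, rose from 55.9 ± 2.77 to 83.4 ± 3.79 FPKM (SD, n = 3 each; limma adjusted p 0.00726). NFIL3 and GADD45A had log2 fold changes of 0.36 and 0.31 (limma adjusted p 0.0430 and 0.0465). SLC6A9, the glycine carrier GLYT1, fell from 4.42 ± 0.212 to 2.77 ± 0.191 FPKM (SD, n = 3 each; limma adjusted p 0.0129). The list had 4 calls in place of 6 without LV-SNORA28 replicate 1 and 3 with any 1 of the other libraries left out.

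Of 12 cytosolic transfer RNA synthetase genes, 3 rose, namely TARS1, NARS1 and YARS1, with log2 fold changes of 0.40, 0.31 and 0.30 (limma adjusted p 0.0156, 0.0212 and 0.0378). Over all genes tested 6.81% rose. At an unadjusted p below 0.05, 6 of the 12 were higher and 1 lower, beside 22.0% and 6.08% of all genes tested. The lower gene was WARS1, which was named after its value was seen (log2 fold change -0.21, limma adjusted p 0.108). With 1 library left out, 0 to 2 synthetase genes were called, and 0 without LV-SNORA28 replicate 2 or LV-SNORA28 replicate 3. The response element letters stood in the windows of 7 of the 10 synthetase genes with a window. Among 26 relatives of the members, 17 were tested and 2 (11.8%) rose, PPP1R15B, which is also counted in the eIF2 list, and SHMT1. Over all genes tested 6.81% rose, a share near that of the relatives. SHMT1, the cytosolic counterpart of SHMT2, was at 3.65, 4.17 and 4.58 FPKM among LV-NC libraries, against 6.34, 6.72 and 6.87 FPKM under LV-SNORA28 (log2 fold change 0.58, SE 0.09, limma adjusted p 0.0154). Neither relative was called without LV-SNORA28 replicate 2 or LV-SNORA28 replicate 3.

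The XBP1 and ATF6 arms of the unfolded protein response, which run beside PERK, held genes that moved the other way. Of their 14 genes, 7 fell and none rose by limma, where 2.10% and 6.81% of all genes tested did. At an unadjusted p below 0.05, 10 were lower and 0 higher, beside 6.08% and 22.0% of all genes tested. The median log2 fold change of the list was -0.43. HSPA5, the chaperone BiP, was at 425.95, 449.24 and 454.76 FPKM among LV-NC libraries, against 302.01, 323.16 and 317.32 FPKM under LV-SNORA28. All LV-SNORA28 libraries were lower, with a log2 fold change of -0.50 (SE 0.06; limma adjusted p 0.00853). HYOU1, SDF2L1, CRELD2, PDIA4 and MANF, further proteins of the endoplasmic reticulum, fell by 0.75, 0.69, 0.66, 0.65 and 0.56 on the log2 scale, at limma adjusted p 0.00399, 0.00726, 0.00960, 0.00358 and 0.0185. The genes that give the arms their names were not called. XBP1 had a log2 fold change of -0.05 (limma adjusted p 0.846), ATF6 one of 0.12 (0.268) and the sensor gene ERN1 one of 0.07 (0.671), all 3 named after their values were seen.

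**Figure D5:**
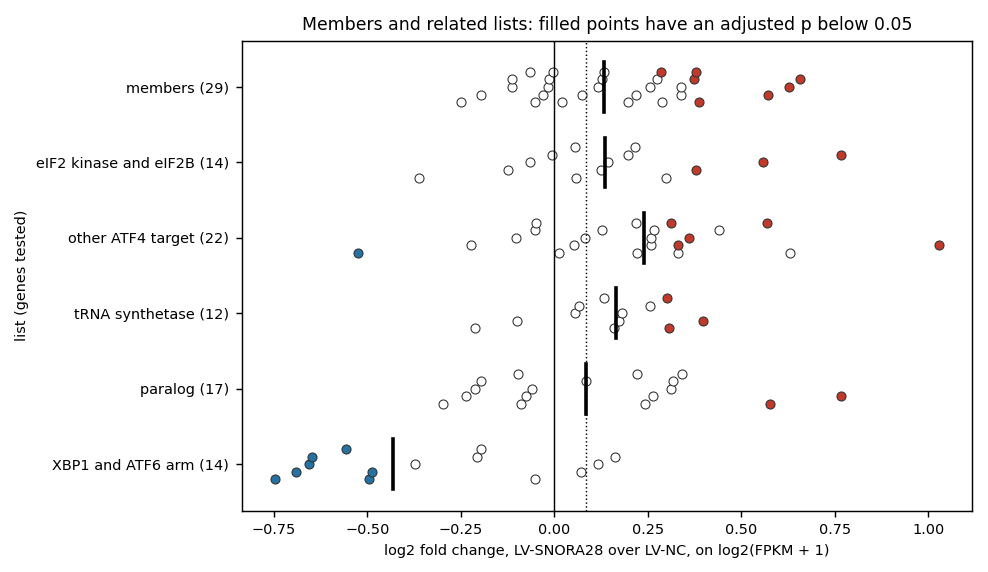
Log2 fold change of each tested member and of each tested gene in 5 related lists, with the number tested in brackets and the list median as a black bar. Filled points passed the adjusted threshold, red for higher and blue for lower, and the medians run from 0.24 for other ATF4 targets to -0.43 for the XBP1 and ATF6 arm.

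The ratio of TRIB3 to HSPA5 within a library was 0.0537 ± 0.00498 under LV-NC and 0.119 ± 0.00545 under LV-SNORA28 (SD, n = 3 each). That of TRIB3 to ATF4 was 0.564 ± 0.0509 and 0.957 ± 0.0728 (SD, n = 3 each). Neither pair of groups overlapped, and the exact permutation p was 0.1 for each. Both ratios were chosen after the values of their genes were seen, so this separation is not a further result. The ER stress element, CCAAT and CCACG with 9 bases of any kind between them, was searched on both strands after the values of this list were seen. It stood in the windows of 4 of the 14 genes of the XBP1 and ATF6 list, in 0 of the 27 members and in 0.0916% of all genes with a window. These 4 were CRELD2 and HSPA5, which fell, and HSP90B1 and XBP1, which were not called, and 5 of the 7 genes that fell had no match. None of the 14 genes held TGATGNAA in a window. The site of HSPA5 is shown as the example, with the matched letters in capitals.

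HSPA5, chr9:125241381-125241419, minus strand, -66 to -48: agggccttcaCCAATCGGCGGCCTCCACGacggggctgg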

How the data were processed

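Poly(A) RNA of 6 libraries was sequenced as paired ends after dUTP marking, per the labels. The authors deposited 1 table per library with gene identifiers and FPKM values, not pooled. The submitters' processing notes name hg38, cutadapt 1.9, HISAT2 2.2.1, StringTie 2.1.6, DESeq2 and edgeR, with no roles; annotation release, filters and mapped totals are not given in the sources used here, so read depth is unknown and no counting interval is given. FPKM is relative to all mapped fragments, so abundant transcripts shift every other value.

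Symbols were found for 60401 of 60612 identifiers in GENCODE release 44 (GRCh38). Values were fitted as log2(FPKM + 1) with limma 3.58.1 (lmFit, eBayes with a mean-variance trend) in R 4.3.3, for genes whose mean reached 1 FPKM, with two-sided p-values adjusted by Benjamini-Hochberg over all genes tested; members below the filter were read from the fit without one. Fold changes on this scale understate those of low genes. The fit was tested on simulated data. Groups came from sample titles.

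The members, lists and tests were chosen with earlier results of these data known, so their counts are descriptions. Every member is named; members past the threshold, with ATF4, DDIT3, TRIB3, CHAC1, ASNS and ATF3, are given per library, and of each list up to 6 called genes per direction, of which 1 is not reported here. SNORA28 and EIF5 serve as a check. Other genes were named after their values were seen: EIF2AK3, the pseudogene PSPHP1 and the gene model overlapping ASNS. Alternatives were no trend, quantile normalization, scaling to the non-mitochondrial sum, no filter, a minimum mean of 5 FPKM, 0.1 as the pseudocount, a block for replicate numbers, a stricter fold change of 2, and each library left out with the tested genes kept.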

Additional observations from a re-analysis of the deposited data

How the results depend on the processing

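The 7 called members became 2 without a filter, where more genes were tested, 4 with the replicate number as a block, and 1 to 3 with 1 library left out; 5 to 7 were called in the other alternatives. Over all genes, the 1076 calls became 397 without a filter, 510 with the block and 279 to 628 with 1 library left out. Same-numbered libraries were not paired by the data, with correlations of their deviations from group means of -0.04, 0.09 and 0.00983. With the block, other ATF4 targets went from 6 calls to 3 and synthetases from 3 to 1; the former also had 3 after quantile normalization and 3 without a filter. The 2 members at the threshold of the study became 0 after quantile normalization, 1 with a mean of at least 5 FPKM and 0 at a fold change above 2. With 1 library left out, counts ranged from 1 to 3 for these members, 0 to 3 for eIF2 genes, 3 to 4 for other targets, 0 to 2 for synthetases, 0 to 2 for relatives and 5 to 7 for the XBP1 and ATF6 arms. The causes of these changes in counts were not tested.

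Signs reversed only among uncalled members. SHMT2 was -0.0296 after quantile normalization and -0.00586 under nuclear scaling, and GPT2 was -0.0255 after quantile normalization. With 1 library left out, log2 fold changes ranged from -0.32 to 0.13 for DDIT3, -0.59 to 0.19 for ATF5, -0.00894 to 0.0595 for SHMT2, -0.22 to 0.0669 for SLC1A5, -0.0322 to 0.0493 for CEBPG, -0.0772 to 0.0567 for PCK2, -0.0550 to 0.17 for GPT2, -0.28 to 0.12 for JDP2 and -0.10 to 0.0375 for EIF2AK4. Depth is unknown, so precision of values near 1 FPKM rests on the spread between libraries.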
